A study of Mus musculus with 4 samples.

Results

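The tetratricopeptide repeat domain (Ttc) genes were examined for binding of RFX2 in mouse testis. A gene belonged to the family when it was protein-coding and its symbol consisted of Ttc, a number and any following letters in the GRCm38 annotation. Of 42 such genes, Ttc8, Ttc21b, Ttc25, Ttc26 and Ttc30b were set aside, so that 37 of 21938 protein-coding genes formed the family. Symbols, not binding values, chose the members. The remaining 21901 protein-coding genes served as the comparison.

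The tetratricopeptide repeat is a short helix-turn-helix motif that occurs in tandem and forms a surface on which other proteins dock. Genes were given a Ttc symbol for this motif alone, so the family is not a pathway. Some members build or serve cilia and the sperm flagellum, and others act in mitochondria, in protein folding, in ubiquitin transfer or in lipid signalling. RFX factors bind the X-box, an imperfect inverted repeat, and are known as regulators of genes for cilia. RFX2 is present in meiotic and early haploid male germ cells.

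RFX2 was immunoprecipitated from chromatin and the recovered DNA was sequenced (ChIP-seq). The 4 samples were 2 RFX2 ChIP replicates and 2 inputs, which are chromatin sequenced without antibody. Per the labels, all came from decapsulated testis of wild type mice on a mixed C57BL/6, 129/Sv and FVB/N background at postnatal day 29 to 30, whereas the study's text describes dissociated germ cells of younger mice, and the lists do not settle which applies. The antibody was a commercial one against RFX2, and there was no group without RFX2 among these samples. Testis holds many cell types, so a peak score cannot tell how many cells were bound from how strongly each was bound. The lists hold no expression values, so the tissue could not be checked against marker genes.

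Every value came from 3 peak lists, because the inputs entered only through the peak calling. Replicate 1 had 39825 peaks, replicate 2 had 21274 peaks, and a combined list, which was treated as a call on the pooled reads of both, had 2726 peaks. The replicate lists give 1 score per peak on a −log10 scale, with a lowest and highest value of 2.03 and 475 for replicate 1 and of 2.08 and 266 for replicate 2. The combined list gives −log10 p, from 43.2 to 493, and a summit, the position of the highest coverage. Absence from the combined list therefore does not mean absence of a peak, since a reproducible but weaker peak may not reach its lowest value. How many reads each list rests on is not known. A promoter peak was one that met the region from 1000 bp upstream to 500 bp downstream of any annotated transcription start site (TSS) by at least 1 bp. A gene can therefore count through an internal TSS far from its main start.

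The sequences under the strongest family peaks are shown first, since 4 of them carry the X-box that is compared with the scores below. The palindrome GTTGCCATGGCAAC was assembled from ATGGCAAC, the 8-base word most enriched around the summits of all 2726 combined peaks. This word, on either strand, was in 40.5% of the windows of 200 bp around the summits and in 0.605% of 5452 flanking windows. A match to the palindrome with at most 3 mismatches on either strand was called an X-box. Each line gives 30 bases on the strand of the gene, 5′ to 3′, from GRCm38 patch 6, with the best match to the palindrome within 200 bp around the summit in capitals.
Ttc30a2: gttggcttGTTGCCATGGGAACaagcacac
Ttc23l: agtgttccATTCCCATGGCAACgcattgtc
Ttc39d: agggatacGTTTCCATGGGAACgccgggat
Ttc30a1: gttacctaGTTTCCTTGGAAACtagcacgc
Ttc12: tcactgacGTTGCTTTAGCGACcagccggc
Ttc41: gggaaacgGTAGCCAAGACAATgcgtcctt
The capitals lay at chr2:75978190-75978203 (minus strand) for Ttc30a2, chr15:10558695-10558708 (minus) for Ttc23l, chr17:80207475-80207488 (plus) for Ttc39d, chr2:75981764-75981777 (minus) for Ttc30a1, chr9:49486315-49486328 (minus) for Ttc12 and chr10:86705856-86705869 (plus) for Ttc41. The first 4 are X-boxes and the last 2 are not.

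Promoters of the family held RFX2 peaks at more than 3 times the share of other genes in each list. No promoter peak in any list was found for 18 of the 37 members and for 18364 of the 21901 other genes. In the replicate 1 list, 17 of 37 members had a promoter peak (45.9%, exact 95% interval 29.5 to 63.1), against 13.9% of other protein-coding genes. In the replicate 2 list there were 15 members (40.5%, 24.8 to 57.9), against 11.2%. Both lists held a promoter peak for 13 members (35.1%, 20.2 to 52.5), against 9.00%, and for 11 of these (29.7%, 15.9 to 47.0) the peaks of both replicates overlapped, against 8.74%. The combined list held 6 members (16.2%, 6.19 to 32.0), against 5.24%. The ratios of the shares ran from 3.10 in the combined list to 3.90 in both replicates. Among genes with a start site in RefSeq (32 members and 16504 others), 4 members had a combined promoter peak at such a site. With these start sites the ratio in the combined list was 2.47. Intervals are Clopper-Pearson, cover counting error only and treat genes as independent. No test was run on the family.

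**Figure D1:**
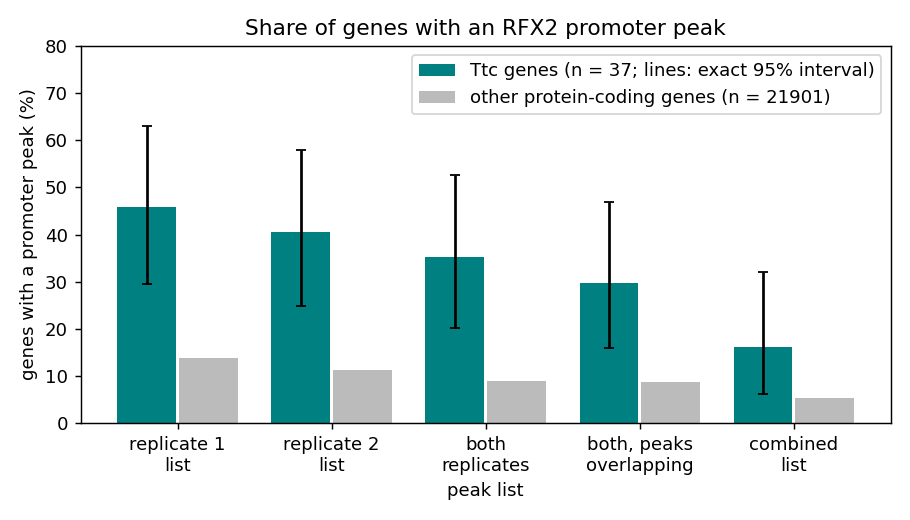
Share of genes with an RFX2 promoter peak, in percent, for the 37 Ttc genes (teal, with exact 95% intervals) and the 21901 other protein-coding genes (grey) in each peak list. The teal bars run from 45.9% in replicate 1 to 16.2% in the combined list and stand above the grey ones, which run from 13.9% to 5.24%.

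Genes with more annotated starts have more promoter sequence, and members had a median of 5 TSSs (1 to 26) against 3 (1 to 58) in other genes. When only the 5′-most TSS of each gene was used, 13 members remained in replicate 1, 11 in replicate 2 and the same 6 in the combined list, against 9.61%, 8.17% and 4.41% of other genes. The 6 members in the combined list had a median of 2 TSSs, and the 18 without any promoter peak had a median of 4.5.

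Among the 6 members of the combined list, Ttc30a2 had by far the strongest binding. It encodes a subunit of the intraflagellar transport complex B, which carries tubulin and other cargo into growing cilia. Its promoter peak (chr2:75977805-75979081) scored 336.5 in replicate 1, the 9th highest of the list, and 116.3 in replicate 2, the 73rd highest. In the combined list its −log10 p was 369, with an enrichment of 69.5-fold over the local background, again the 9th highest of 2726. The summit lay 107 bp upstream of the TSS. A further replicate 1 peak of 16.2 overlapped the downstream end of the combined peak.

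Ttc41, Ttc23l and Ttc39d formed a group with close values. Ttc41 (chr10:86705445-86706534) scored 145.4 in replicate 1, 72.3 in replicate 2 and 193 in the combined list, with its summit 18 bp downstream of a TSS. Ttc23l (chr15:10558300-10559314), a paralogue of the ciliary gene Ttc23, scored 143.0, 41.9 and 171, with the summit 32 bp upstream. Ttc39d (chr17:80207237-80208125) scored 135.9, 45.9 and 167, with the summit 4 bp upstream. In replicate 1 these genes lay within 10 score units of each other, and replicate 2 placed Ttc41 above the other two. All 3 ranked between 274 and 402 among the combined peaks, and their fold enrichments were 22.3, 18.7 and 13.99.

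Ttc12 and Ttc30a1 were weaker. Ttc12, needed in the cytoplasm for the assembly of the dynein arms that drive flagellar beating, scored 52.3 in replicate 1, 24.6 in replicate 2 and 75.5 in the combined list (chr9:49485768-49487055, fold enrichment 13.5), with its summit 100 bp upstream. Ttc30a1, a near copy of Ttc30a2, scored 30.1, 18.8 and 44.0 (chr2:75981640-75982054, fold enrichment 11.6), with its summit 171 bp downstream. The Ttc30a1 peak was 2664th of 2726, close to the end of the list. The order of the 6 genes was the same in replicate 1 and the combined list, and replicate 2 differed only in placing Ttc39d above Ttc23l. Over the 6 members the median −log10 p was 169 and the median rank 388, against 105 and 944 for the highest promoter peaks of 1147 other genes.

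**Figure D2:**
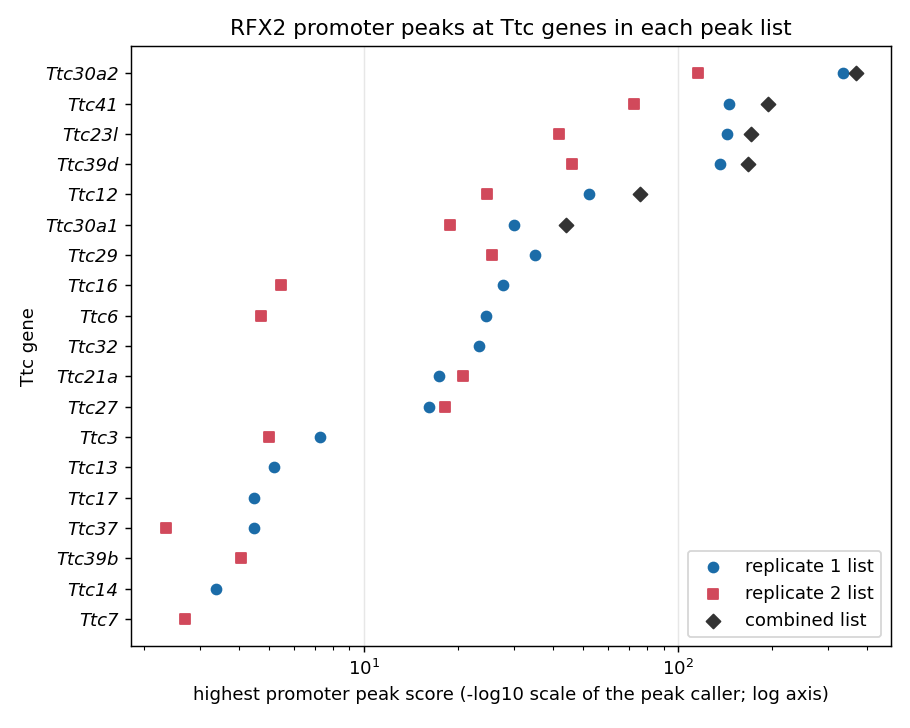
Highest promoter peak score of each of the 19 Ttc genes with any promoter peak, on the −log10 scale of the peak caller (log axis), in the replicate 1 list (circles), the replicate 2 list (squares) and the combined list (diamonds). The 6 genes with a diamond reach 30.1 to 336.5 in replicate 1, and Ttc29 lies within that range at 35.0 without a peak in the combined list. In replicate 2 Ttc29 lies at 25.6, also above Ttc30a1 at 18.8.

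The X-box matches followed the scores only in part. On the strand of the gene, position 1 is the first (5′) base of the palindrome, and each change gives the base of the palindrome first. The site of Ttc30a2 had 1 mismatch (C11G) and lay 26 bp upstream of the TSS. That of Ttc23l had 2 mismatches (G1A and G4C), 33 bp upstream, and that of Ttc39d had 2 (G4T and C11G), 21 bp downstream in the first exon. Ttc30a1 had 3 (G4T, A7T and C11A), 197 bp downstream in exonic sequence. All 4 X-boxes differed from the palindrome at position 4 or its mirror position 11, the pair of positions at which 46.8% of 2056 X-box peaks of the whole list differed, more than at any other pair. The match of Ttc12 had 4 mismatches (C6T, A7T, G9A and A12G), and that of Ttc41, the second strongest gene of the family, also had 4 (T3A, T8A, G10A and C14T). Both of these lay within 3 bp of the summit, as did the X-box of Ttc23l, whereas the X-boxes of Ttc39d and Ttc30a1 were 26 and 25 bp away and that of Ttc30a2 was 80 bp away.

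An X-box was thus present around 4 of 6 family summits (66.7%, exact 95% interval 22.3 to 95.7) and in 0 of the windows 1000 bp away. For promoter peaks of other genes the share was 58.9% of 997 peaks, with 0.802% in flanks. The palindrome came from the word most enriched around all combined summits over such flanks. An excess over the flanks was therefore favoured in advance. With up to 4 mismatches all 6 family peaks had a match, against 77.9% of the other promoter peaks, and the flanks rose to 16.7% (1 of 6) and 4.81%. The regions upstream of Ttc12 and Ttc23l are given in full, as the pair of single-gene promoters in which no exon of a coding gene overlaps the 250 bases upstream of the TSS and which differ in having an X-box. The sequences are from GRCm38 patch 6 on the strand of the gene, 5′ to 3′, chr9:49486226-49486475 (minus) and chr15:10558670-10558919 (minus), with the best match in capitals.
Ttc12: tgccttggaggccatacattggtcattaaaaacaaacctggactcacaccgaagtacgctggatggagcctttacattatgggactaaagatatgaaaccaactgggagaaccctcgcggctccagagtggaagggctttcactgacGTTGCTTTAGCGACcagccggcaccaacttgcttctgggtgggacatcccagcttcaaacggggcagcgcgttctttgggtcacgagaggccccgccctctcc
Ttc23l: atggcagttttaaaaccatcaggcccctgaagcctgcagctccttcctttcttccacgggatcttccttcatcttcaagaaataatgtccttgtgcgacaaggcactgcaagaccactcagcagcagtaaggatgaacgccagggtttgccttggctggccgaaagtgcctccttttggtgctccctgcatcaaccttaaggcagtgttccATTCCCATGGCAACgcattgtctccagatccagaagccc

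**Figure D3:**
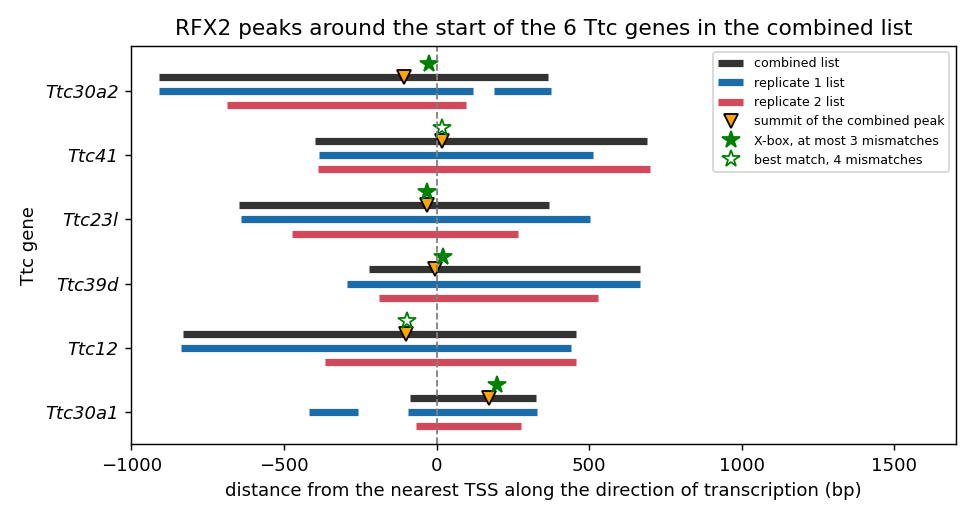
Extent of the promoter peaks of the 6 Ttc genes of the combined list, in bp from the nearest TSS (dashed line) along the direction of transcription, in the combined (black), replicate 1 (blue) and replicate 2 (red) lists, with the combined summit (triangle) and the best match to the palindrome (star, filled with at most 3 mismatches). The summits lie from 107 bp upstream (Ttc30a2) to 171 bp downstream (Ttc30a1) of the TSS.

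The Ttc30 genes were compared with each other because they are near copies. The coding sequences of Ttc30a1, Ttc30a2 and Ttc30b, each of 1992 bp, were 94.9% to 95.1% identical, while the promoters (250 bp upstream to 50 bp downstream) were 43.9% to 46.4% identical. Ttc30a1 and Ttc30a2 lie in tandem with TSSs 3797 bp apart, and 76 bp separate the end of the former from the start of the latter. The peak of Ttc30a2 therefore also overlapped the 3′ end of Ttc30a1. Ttc30b, which was set aside with the other named genes, had a promoter peak of 90.6 in replicate 1, 31.6 in replicate 2 and 104 in the combined list, between its neighbours. A further combined peak with an X-box, in intergenic sequence between Ttc30b and Ttc30a2 (chr2:75953311-75954280), had a −log10 p of 89.2 and lay 24.5 kb from the TSS of Ttc30a2. The authors discarded reads that map to several places. Of the 36-base words under the peaks, 3.95% for Ttc30a1, 17.95% for Ttc30a2 and 8.05% for Ttc30b recurred within the 56.1 kb around these genes. The strongest peak thus had the highest share of repeated words, and the part of lost reads in these scores was not tested.

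A promoter peak in both replicates but not in the combined list was found for 7 of the 37 members, against 840 of the 21901 other genes. Ttc29, which encodes a flagellar protein needed for sperm motility, led this group with 35.0 in replicate 1 and 25.6 in replicate 2. Both scores were above those of Ttc30a1 (30.1 and 18.8), yet only Ttc30a1 was in the combined list. Why Ttc29 was absent from that list was not tested. Ttc29 had an X-box with 3 mismatches (G4T, C11A and A12G) at chr8:78213301-78213314, 5 bp downstream of a TSS. The site is shown on the plus strand of GRCm38 patch 6, 5′ to 3′, with the match in capitals, beside that of an internal Ttc27 peak (chr17:74738916-74738929, plus strand) and the best match of Ttc21a (chr9:119937612-119937625, plus strand).
Ttc29: gcccctctGTTTCCATGGAGACgctttcag
Ttc27: ggtatgtgGTCGCCATAGCAACaggtgaca
Ttc21a: gcagccagGTTGCCAAGGACGCgcgcgcct

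Ttc21a, a paralogue of the gene for the intraflagellar transport protein IFT139, scored 17.3 in replicate 1 and 20.6 in replicate 2. Its best match had 4 mismatches (T8A, C11A, A12C and A13G), 12 bp downstream of the TSS. Ttc27 had a peak at its main start (14.3 and 16.2) and a slightly higher one at an internal TSS 21.9 kb downstream (16.2 and 18.1). The internal peak lay in an intron and held an X-box with 2 mismatches (T3C and G9A), 718 bp upstream of that TSS, while the best match under the peak at the main start had 4 mismatches. Ttc21a and Ttc27 were the only members of the 13 that scored higher in replicate 2 than in replicate 1.

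Ttc16 and Ttc6 had a higher score in replicate 1 than in replicate 2 by a wide margin. Ttc16 scored 27.7 and 5.47, and Ttc6 scored 24.5 and 4.72, with a further replicate 1 peak of 2.87 at an internal TSS. Their best matches had 5 or 6 mismatches. The last pair, Ttc3 and Ttc37, had no shared site. Ttc3, a ubiquitin ligase gene, had a replicate 1 peak of 7.27 and a replicate 2 peak of 4.99 at different internal TSSs, 54.5 and 80.5 kb downstream of its first start. Ttc37, whose product assists the RNA exosome, had replicate 1 peaks of 4.47 and 3.43 and a replicate 2 peak of 2.34, which did not overlap. No promoter peak lay at the first TSS of either gene.

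Across the 13 members with a promoter peak in both replicates, the highest scores ranked alike in both lists, with a Spearman coefficient of 0.912. This describes genes within the same pair of libraries, and the coefficient over 1972 other genes was 0.880. Scores were higher in replicate 1 for 11 of 13 members and for 87.8% of other genes. The median scores were 30.1 and 20.6 for members and 38.9 and 19.4 for other genes. The median of members was thus below that of other genes in replicate 1 and slightly above it in replicate 2. The higher median of members in the combined list rested on 6 values.

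**Figure D4:**
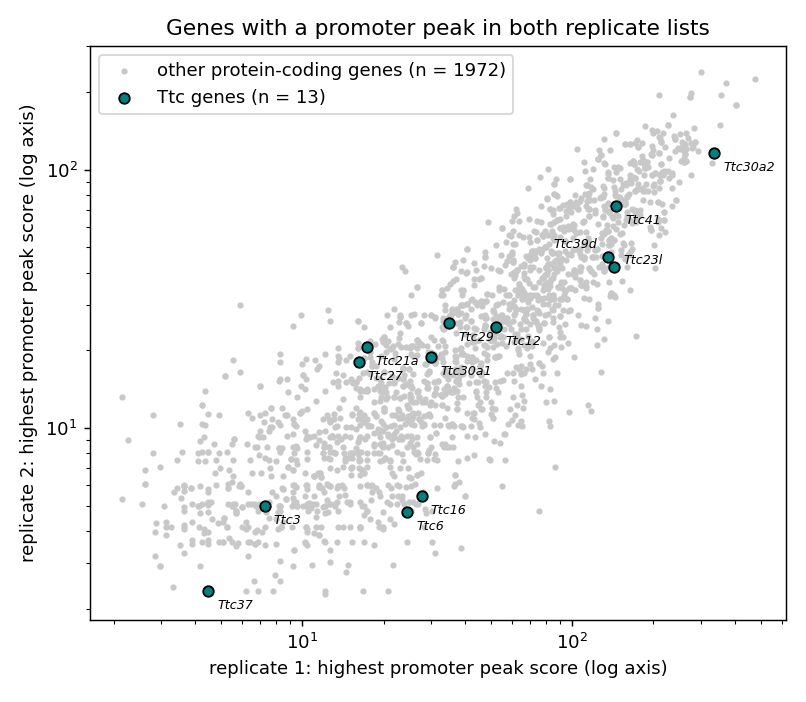
Highest promoter peak score in replicate 1 (x, log axis) and replicate 2 (y, log axis) for the 13 Ttc genes (teal, named) and 1972 other protein-coding genes (grey) with a promoter peak in both lists. The Ttc genes span the cloud from Ttc37 (4.47 and 2.34) to Ttc30a2 (336.5 and 116.3), with Ttc16 and Ttc6 at its lower edge.

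Single-list peaks were mostly weak and often far from the main start. In replicate 1 alone, Ttc32 had peaks of 23.2 and 7.62 upstream of its first TSS, Ttc13 had one of 5.19, Ttc17, which takes part in ciliogenesis, had one of 4.47 at an internal TSS 43.9 kb downstream, and Ttc14 had one of 3.39. Ttc32 stood out, since its score of 23.2 was among the top 9.78% of replicate 1, yet replicate 2 had no promoter peak there. In replicate 2 alone, Ttc39b, which controls levels of a sterol-sensing nuclear receptor, had a peak of 4.08 at an internal TSS 91.1 kb downstream, and Ttc7, a scaffold of a phosphatidylinositol kinase, had one of 2.70 at an internal TSS 96.0 kb downstream.

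The remaining 18 members, Ttc1, Ttc4, Ttc5, Ttc7b, Ttc9, Ttc9b, Ttc9c, Ttc19, Ttc22, Ttc23, Ttc24, Ttc28, Ttc33, Ttc34, Ttc36, Ttc38, Ttc39a and Ttc39c, had no promoter peak in any list. Among them are Ttc19, a mitochondrial factor of respiratory complex III, Ttc4, a partner of the chaperone HSP90, and Ttc23, a protein of the ciliary base that acts in Hedgehog signalling. A peak below the thresholds of the lists would not be seen, so these genes are not shown to be unbound.

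Several members without a combined promoter peak had a combined peak in the gene body or within 50 kb of a TSS. Ttc28 had 2 intronic peaks with X-boxes, with −log10 p of 63.9 and 52.0, at 27.5 and 102 kb from the nearest TSS. The 3′ end of Ttc16 held a peak of 163 with an X-box, which is also the promoter peak of the neighbouring Tor2a, 18.2 kb from the TSS of Ttc16. Peaks outside the gene lay 30.2 kb from Ttc9c (123, with an X-box), 16.0 kb from Ttc3 (58.5), 49.7 kb from Ttc21a (53.2) and 41.7 kb from Ttc14 (229, at the promoter of Ccdc39). Distance alone does not assign these peaks to a Ttc gene. The share of other genes with such a peak is not given here, so these peaks are not set against a background.

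Some family peaks could not be ascribed to the Ttc gene alone, because the peak also met the promoter of a neighbour on the opposite strand. Of the 6 members in the combined list, Ttc41 shared its peak with Hsp90b1, which encodes a chaperone of the endoplasmic reticulum, and Ttc39d with the splicing factor gene Srsf7. Their TSSs were 335 and 153 bp apart, and the summits lay 18 and 4 bp from the TSS of the Ttc gene but 353 and 149 bp from that of the neighbour. Counted with neighbours on either strand, sharing was seen for 321 of 1147 other genes (28.0%), against 2 of 6 members (33.3%). In the replicate lists, Ttc21a shared with Gorasp1 (TSSs 41 bp apart) and Ttc13 with Arv1 (176 bp apart). For Ttc41 and Ttc39d the annotation also mattered. Their RefSeq start sites lay 6.90 and 8.46 kb downstream of the summits, so that with RefSeq starts neither gene had a promoter peak in the combined list. The summits of the other 4 members lay within 171 bp of the RefSeq start.

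X-boxes were also counted in the promoters themselves, whether or not a peak was called. In the windows from 250 bp upstream to 50 bp downstream of any TSS, 8 of 37 members had an X-box (21.6%, exact 95% interval 9.83 to 38.2), against 6.89% of other genes. With the 5′-most TSS alone the shares were 13.5% and 3.21%. The 8 members were Ttc30a2, Ttc23l and Ttc39d of the combined list, Ttc29 of both replicates, Ttc13 and Ttc7 of a single list, and Ttc39a and Ttc7b without a promoter peak. Ttc39a had a match with 2 mismatches, as many as the bound sites of Ttc23l and Ttc39d. Among members without a peak, 2 of 18 (11.1%, 1.38 to 34.7) had an X-box window, against 3.30% of other genes without a peak, and the direction turned with the 5′-most TSS alone, with 0 of 18 against 1.15%. For genes of the combined list the shares were 3 of 6 members and 45.4% of 1147 other genes. G+C and CpG content were taken from the window at the 5′-most TSS only. These windows had a median G+C content of 56.7% in the family, against 55.0% in other genes. The median ratio of observed to expected CpG dinucleotides was 0.706 in the family and 0.524 in other genes. Among other genes, those of the combined list had 0.730 and those in no list 0.472, so this ratio moved with binding, and its part in the shares of the family was not tested.

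The known roles of members were set beside binding with fixed lists, compiled like the family itself with earlier results of these data known. Of 7 members with a role in cilia or flagella (Ttc12, Ttc17, Ttc21a, Ttc23, Ttc29, Ttc30a1 and Ttc30a2), 5 had a promoter peak in both replicates and 3 (42.9%) in the combined list, where the shares over other protein-coding genes were 9.00% and 5.24%. Of 9 members with roles elsewhere (Ttc1, Ttc3, Ttc4, Ttc5, Ttc7, Ttc7b, Ttc19, Ttc37 and Ttc39b), 2 had one in both replicates, at scores of at most 7.27, and 0 in the combined list. These lists are small and the difference between them was not tested, so it describes the genes named and not their roles. Ttc41, Ttc23l and Ttc39d, which ranked next after Ttc30a2, were in neither list. Of the 5 Ttc genes set aside, 4 had a combined promoter peak, namely Ttc26 (218) of intraflagellar transport, Ttc30b (104), Ttc25 (70.4) of the dynein arm docking complex and Ttc8 (49.9) of the BBSome, and Ttc21b had none.

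Genes with the same repeat but other symbols were also counted. Of 6 genes that once carried a Ttc symbol, 3 had a combined promoter peak, which were the axonemal genes Cfap46 (119) and Cfap70 (98.99) and the chaperone gene Dnajc7 (75.0), while Ift88 had a peak of 9.88 in replicate 1 alone. Of 43 repeat genes that lack a Ttc symbol, 6 had a promoter peak in both replicates and 4 (9.30%) in the combined list, against 16.2% of the family and 5.24% of other protein-coding genes. These 4 were Sgta (122), a co-chaperone gene, the phosphatase gene Ppp5c (104), Spag1 (102), which acts in dynein arm assembly, and Tmtc3 (50.6).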

How the data were processed

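Peak lists of 2 RFX2 ChIP-seq replicates and a combined list were analysed. Per the labels, reads were processed with CASAVA 1.8.2, Bowtie 0.12.7 and MACS2 2.0.10.20130520. The authors mapped reads to GRCm38 (Ensembl release 70), discarded reads with several locations, removed human reads from a second run of replicate 2 only, and called peaks against input. The methods describe a default and a relaxed call per replicate and a selection of reproducible peaks by the irreproducible discovery rate (IDR) between replicates, and do not say which of them these lists are. The length of the combined list is close to the number of peaks that selection gave, so its peaks may have been chosen for reproducibility. The deposited replicate lists hold a −log10 p-value or q-value, which of them is not stated. The deposited combined list holds a score, the summit, −log10 p and q, and the ratio of ChIP signal to local background. Since it was taken as a call on pooled reads, its overlap with the replicates is no independent replication.

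Genes and TSSs were taken from GENCODE mouse release 21 and sequence from GRCm38 patch 6. Intervals for shares are exact (scipy 1.17.1, Python 3.11.15). The overlap and motif code was tested on simulated data. All members were named, and values were given for those with a promoter peak. The members and lists were chosen with earlier results of these data known. Of the members, 32 had a start site in the RefSeq promoter table. The alternatives covered TSS sets, promoter windows, score thresholds and motif settings. The RefSeq start sites and the demand for overlapping replicate peaks were added after seeing the data.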

Additional observations from a re-analysis of the deposited data

How the results depend on the processing

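Of 44 alternative values, 41 kept the direction and stayed within 1.5 times the value reported (for the ratio, within its exact interval), and 0 reversed. With RefSeq start sites 10 members in place of 17 had a promoter peak in replicate 1, and 9 in place of 15 in replicate 2. The shares of all 21901 other genes fell too, to 8.296% from 13.9% and to 6.995% from 11.2%. Of these other genes only 16504 have a RefSeq start site. The rest could not be counted but stayed in the denominator, which by itself lowers these shares. Ttc14 and Ttc32, which had a replicate 1 peak, have no RefSeq start site and could not be counted. With windows around the peak centre in place of the summit, 1 of the 6 combined peaks kept an X-box. Summits and centres of these peaks were 51 to 225 bp apart. The count in both replicates became 15 or 17 when 1 replicate was left out, which only restates the count of the other list. The median rank stayed at 388 in settings that kept the same 6 peaks, where it could not move. The combined count stayed at 6 under each alternative with GENCODE starts except the top 50% of peaks, which left 4. No paired analysis was possible because no test was run and the 2 replicates form 1 group. Read depth is not known, and weak peaks may lie under the thresholds.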
